A study of Mus musculus with 27 samples.

Results

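The nucleolar ribosome assembly factors are 42 mouse genes whose proteins transcribe, cut, modify and fold ribosomal RNA in the nucleolus. They were taken from a gene list and matched by the gene name on each array probe, with older names matched through the probe's accession. All 42 were measured, by 71 of the 41174 probes on the arrays, and they are 42 of the 21866 genes tested. They comprise 3 subunits of RNA polymerase I, 3 proteins of the box C/D and 3 of the box H/ACA small nucleolar ribonucleoproteins (snoRNPs). A further 12 act in small subunit assembly and 15 in large subunit assembly, and 6 are nucleolar proteins with several functions.

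The RNA was from whole uterus. The mice were ovariectomised females, labelled as aged 8 weeks, of the inbred strains C57BL/6 (B6) and C3H/HeJ (C3H) or of their F1 cross. Removal of the ovaries leaves every group, vehicle included, without its main source of estrogen. Mice received the estrogen 17β-estradiol (E2) intraperitoneally at 40.0 µg per kg body weight, with collection 2 h or 24 h later, or ethanol and saline vehicle, for which the labels give no time. Crossing the 3 strains with vehicle and both times of E2 made 9 groups of 3 single-colour Agilent arrays, 27 in all. The labels name 3 animals per treatment group without saying which array holds which animal. The p-values therefore cover only the spread between these samples, which may be technical.

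Levels below are log2 signal minus the 75th percentile of the array, so a level of 0 is that percentile, and no probe's level is set against another's. The 75th percentile lay between 1210 and 1579 intensity units, 72.4% to 79.4% of the probes on an array exceeded background clearly, and replicate arrays correlated over genes at r = 0.988 to 0.996. The probe used for each of the 42 genes was well above background on all 27 arrays. Defining transcripts of the uterus (Hoxa10, Hoxa11, Esr1, Pgr, Myh11, Acta2, Epcam and Krt8) were well above background in all 9 groups. The arrays lay on 7 slides, and no slide held both a C3H vehicle and a C3H E2 array, so in C3H slide and the change from vehicle cannot be told apart. The F1 24 h arrays lay on a slide that held no other group. Slide and every F1 24 h difference, from vehicle or from 2 h, therefore cannot be told apart either.

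A ribosome begins as a long precursor transcribed by RNA polymerase I. SnoRNPs guide chemical marks onto it, with box C/D particles adding methyl groups and box H/ACA particles making pseudouridine, and a succession of assembly factors folds and cuts it into the RNAs of the small and large subunits. Estrogen drives the uterus of ovariectomised rodents through an early phase of water uptake and RNA synthesis and a later phase of epithelial DNA synthesis and growth, and more ribosomes are a known part of that growth.

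At 2 h after E2 most of the assembly factors were higher than in vehicle in every strain. In B6, 34 of 42 rose and 1 fell, against 22.7% of all genes tested that were called higher and 34% called lower (limma, adjusted p under 0.05). In C3H, 35 rose and 2 fell, against 23.9% and 37.1% of all genes. In F1, 36 rose and 1 fell, against 22.8% and 37%. The median change of the 42 genes was 0.80 log2 units in B6, 0.78 in C3H and 0.94 in F1, while the median of all genes was -0.09, -0.13 and -0.12. Of the 42, 33 were called higher at 2 h in all 3 strains, as were 17.8% of all genes.

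**Figure D1:**
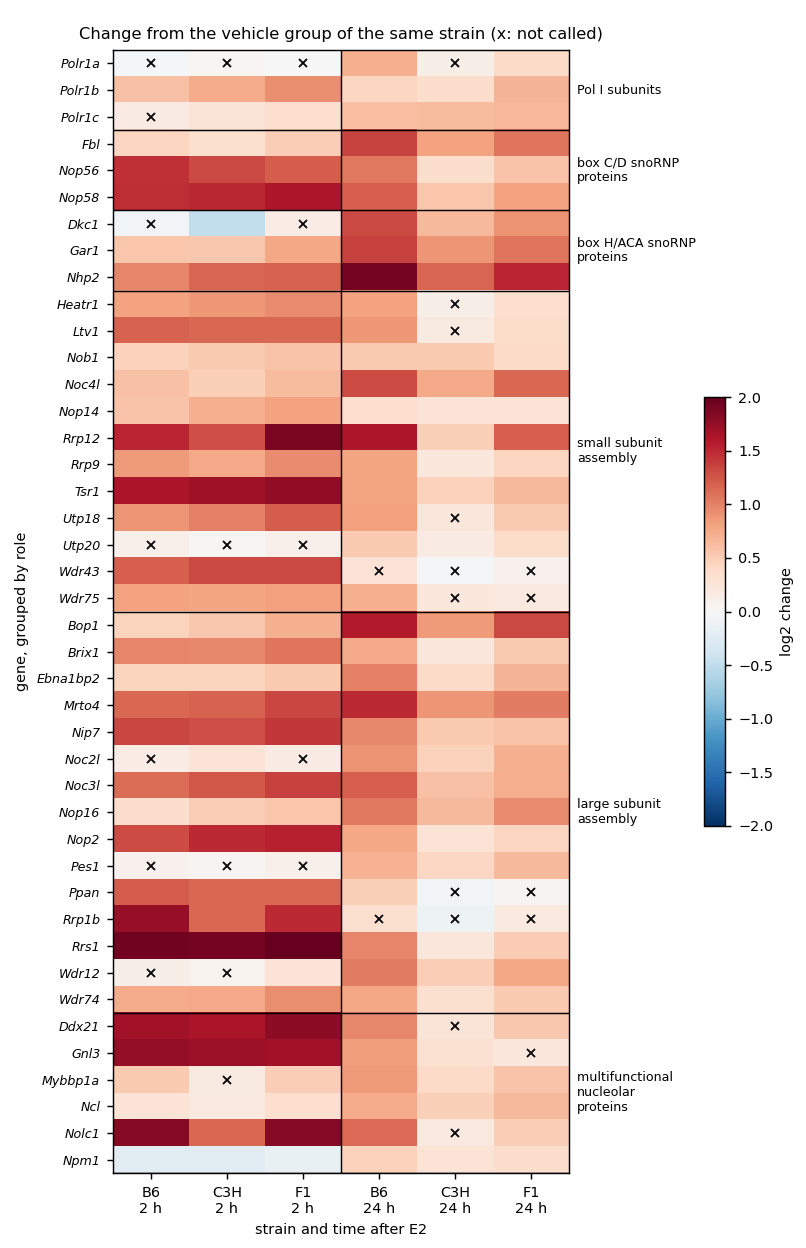
Log2 change from the vehicle group of the same strain, 2 h and 24 h after E2, for the 42 genes (rows, grouped by role); red is higher, blue is lower, and a cross marks a change that was not called. The 2 h columns look alike across strains, while the 24 h column of C3H is paler than that of B6.

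Rrs1, a large subunit factor needed to bring in the small ribosomal RNA of that subunit, showed the largest 2 h rise. Its levels were 0.22, 0.33 and 0.27 on the B6 vehicle arrays and 2.15, 2.29 and 2.17 at 2 h. In C3H they went from 0.31, 0.33 and 0.29 to 2.05, 2.36 and 2.24, and in F1 from 0.35, 0.42 and 0.43 to 2.21, 2.57 and 2.56. The 2 h arrays lay far above all vehicle arrays in each strain, by 1.93 ± 0.09 (limma SE) log2 units in B6, 1.91 ± 0.09 in C3H and 2.05 ± 0.09 in F1, a 3.81-, 3.76- and 4.13-fold rise. On the probes used Nop2, Nip7, Noc3l, Mrto4, Ppan and Rrp1b rose by 1.12 to 1.74. Brix1 and Wdr74 rose by 0.75 to 1.08, and Nop16 and Ebna1bp2 by 0.35 to 0.56. Another Rrp1b probe differed by 0.34 in B6, -0.07 in C3H and 0.07 in F1, while its remaining probes differed by 1.10 to 1.82. The second probe of Nip7 differed by 0.69, 0.65 and 0.63. The second probe of Ebna1bp2 differed by -0.01 in B6, 0.01 in C3H and -0.04 in F1. Noc2l was called in C3H alone, at 0.28. Bop1, Pes1 and Wdr12, which form a single complex in large subunit assembly, did not move alike at that time. Bop1 rose by 0.45 in B6, 0.54 in C3H and 0.70 in F1, whereas Pes1 differed by 0.09, 0.05 and 0.10 on the probe used and was not called in any strain. The second probe of Pes1 differed by 0.85, 0.86 and 0.69, so its values here rest on the probe. Wdr12 was called in F1 alone, at 0.27 with an adjusted p of 0.0497, and differed by 0.11 in B6 and 0.07 in C3H.

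Gnl3 (nucleostemin, a GTPase of dividing and stem cells) had levels of 0.12, 0.22 and 0.12 in B6 vehicle and 1.85, 1.97 and 1.92 at 2 h. In F1 the vehicle arrays read 0.40, 0.29 and 0.81 and the 2 h arrays 1.92, 2.33 and 2.28. No 2 h array overlapped vehicle, and the rise was 1.76 ± 0.11 in B6, 1.72 ± 0.11 in C3H and 1.67 ± 0.11 in F1. Ddx21, an RNA helicase that couples RNA polymerase I transcription to snoRNP-guided processing, went from -0.14, 0.12 and -0.02 to 1.58, 1.66 and 1.75 in B6. It rose by 1.67 ± 0.12 there, 1.64 ± 0.12 in C3H and 1.79 ± 0.12 in F1. Nolc1, a chaperone of snoRNPs, rose by 1.82 ± 0.16 in B6, 1.15 ± 0.16 in C3H and 1.81 ± 0.16 in F1. Its vehicle arrays were spread, at 0.27, 0.74 and 0.99 in B6 and 0.99, 1.32 and 0.78 in C3H, but stayed below the 2 h arrays, which were 2.28, 2.54 and 2.65 in B6 and 2.23, 2.20 and 2.10 in C3H.

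Among small subunit factors, 11 of 12 rose at 2 h in each strain. Tsr1, a GTPase-like protein of late small subunit precursors, went from -0.02, 0.23 and 0.19 to 1.75, 1.77 and 1.77 in B6, and from 0.25, 0.29 and 0.30 to 1.77, 2.05 and 2.09 in C3H. These groups did not overlap, and the rise was 1.63 ± 0.11 in B6, 1.69 ± 0.11 in C3H and 1.77 ± 0.11 in F1. Rrp12, which helps export precursor subunits, rose by 1.52 ± 0.17, 1.29 ± 0.17 and 1.88 ± 0.17. Wdr43, a factor of the earliest precursor particle, rose by 1.20 ± 0.13, 1.31 ± 0.13 and 1.33 ± 0.13. The other members, from Nob1 at the low end to Utp18 at the high end, rose by 0.46 to 1.21. The exception was Utp20, a very large scaffold protein, which differed by 0.10, 0.02 and 0.11 and was not called.

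SnoRNP proteins split by subunit of the same particle. The box C/D scaffold proteins Nop56 and Nop58 were among the large risers: Nop56 rose by 1.47, 1.32 and 1.22 in B6, C3H and F1, and Nop58 by 1.48, 1.51 and 1.61, each with an SE of 0.09. Fbl (fibrillarin), the methyltransferase bound by them, rose by 0.43, 0.32 and 0.49 with an SE of 0.07. In the box H/ACA particle Nhp2 rose by 0.98, 1.17 and 1.18 and Gar1 by 0.55, 0.54 and 0.77. Dkc1 (dyskerin), the pseudouridine synthase of that particle, did not: its levels were -1.73, -1.64 and -1.92 in C3H vehicle and -2.18, -2.16 and -2.42 at 2 h. All C3H 2 h arrays were below all C3H vehicle arrays, a fall of 0.49 ± 0.11 (adjusted p = 0.000893), while Dkc1 differed by -0.06 in B6 and 0.15 in F1 and was called in neither. Under another background correction (normexp) the C3H difference of -0.44 was not called. The difference between C3H and B6 in the 2 h change of Dkc1 was itself not called.

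Npm1 (nucleophosmin), an abundant nucleolar chaperone, was called lower at 2 h in every strain. Levels were 5.80, 5.74 and 5.68 in B6 vehicle and 5.45, 5.53 and 5.54 at 2 h, and 6.02, 5.93 and 5.97 against 5.74, 5.77 and 5.76 in C3H. Within B6 and within C3H the groups did not overlap. The falls were 0.23 ± 0.06 in B6, 0.21 ± 0.06 in C3H and 0.16 ± 0.06 in F1, beside -0.092, -0.13 and -0.12 for the median gene, and they depended on how the arrays were scaled. No call in any strain was kept with median scaling, with no scaling or with normexp, and in F1 the value turned to 0.096 with no scaling and 0.045 with normexp. The F1 call was also lost when F1 2 h replicate 1 (-0.16) or replicate 3 (-0.13), or F1 vehicle replicate 1 (-0.12) or replicate 2 (-0.14), was left out.

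Ncl (nucleolin), another abundant protein of the nucleolus, rose by 0.27, 0.19 and 0.34, and Mybbp1a by 0.52 in B6 and 0.49 in F1, with 0.17 in C3H not called.

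The RNA polymerase I subunits moved less. Polr1b, its second largest subunit, rose by 0.58 ± 0.15 in B6, 0.75 ± 0.15 in C3H and 0.94 ± 0.15 in F1. Polr1a, the largest and catalytic subunit, differed from vehicle by -0.04, 0.04 and 0.01 at 2 h with an SE of 0.07 and was not called. The second probe of Polr1a differed by 0.46 in B6, 0.12 in C3H and 0.18 in F1. Polr1c, which RNA polymerase III shares, was called in C3H at 0.26 and in F1 at 0.33 and not in B6 at 0.16.

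Markers of other cells moved at 2 h too. Of 10 stromal markers, 8 fell and 1 rose in each strain, and their summed level, in units of each array's 75th percentile, was 437 to 463 in B6 vehicle and 311 to 350 at 2 h. Of 10 genes of dividing cells, 7 rose at 2 h in F1 and none was called in B6 or C3H. In 1 of the C3H 2 h arrays the summed level of 8 leukocyte and macrophage markers reached 64.5. In whole uterus fewer cells of a type and less RNA per cell cannot be told apart, and the part of these shifts in the changes of the assembly factors was not tested.

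MYC proteins, transcription factors known for driving ribosome assembly genes, bind the E-box CACGTG, which reads the same on both strands. Of the 42 genes, 37 had an entry in the RefSeq promoter table (GRCm38.p6), and Rrs1, Fbl, Bop1, Npm1 and Rrp12 had none. In the window from 250 bases before to 50 bases after each start, CACGTG was present in 8 of the 37 genes (21.6%), against 8.09% of the 27025 genes in that table, counting a gene once if any of its entries held it. In the 250 bases before the start alone it was in 2 of 37 (5.41%) against 6.86%, so 6 of the 8 had it within the 50 bases after the start. The stretch of at most 30 bases around each is shown because most of these genes rose together at 2 h. Each reads in the direction of its gene with the E-box in capitals, and a match shows letters, not binding.
Nop2: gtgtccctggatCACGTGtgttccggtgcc
Utp18: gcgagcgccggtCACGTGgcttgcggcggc
Pes1: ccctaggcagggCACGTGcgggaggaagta
Wdr43: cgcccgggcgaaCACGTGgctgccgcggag
Tsr1: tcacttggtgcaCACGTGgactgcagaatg
Ltv1: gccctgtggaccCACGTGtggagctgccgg
Utp20: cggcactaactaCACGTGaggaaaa
Mybbp1a: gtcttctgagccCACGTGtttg

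The Nop2 stretch is chr6:125131811-125131840 on the plus strand, with the E-box 60 bases before the start, and the Utp18 stretch is chr11:93885769-93885798 on the minus strand, 20 bases before it. In Pes1 (chr11:3963965-3963994, plus) the E-box begins at base 3 after the start, in Wdr43 (chr17:71616220-71616249, plus) at base 18 and in Tsr1 (chr11:74898092-74898121, plus) at base 25. In Ltv1 (chr10:13193092-13193121, minus) it begins at base 29, in Utp20 (chr10:88826765-88826789, minus) at base 38 and in Mybbp1a (chr11:72441355-72441376, plus) at base 41. These genes did not move alike. Nop2 (a methyltransferase acting on large subunit RNA), Wdr43, Tsr1 and Ltv1 (a late small subunit factor) rose at 2 h by 1.31, 1.20, 1.63 and 1.18 in B6, while Utp20 and Pes1 were not called.

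Of the 11 genes of the MYC network, 5 rose and 5 fell at 2 h in each strain, and the MYC genes were among those that rose. Mycn levels were -0.39, -0.11 and -0.40 in B6 vehicle, 1.66, 1.41 and 1.33 at 2 h and 0.28, -0.01 and 0.02 at 24 h. The 2 h arrays stood above all others in B6, and Mycn rose by 1.77 in B6, 1.14 in C3H and 1.49 in F1. Mycl rose by 1.55, 1.51 and 1.51, and Myc by 0.57, 0.41 and 0.41. The MAX partners Mxd1, Mxd4 and Mxi1, which compete with MYC, fell by 0.82, 1.12 and 1.01 in B6, and by 0.85 to 1.15 in C3H and F1. Max, the shared partner, fell by 0.13 to 0.16 and Mga by 0.29 to 0.58, while Mnt rose by 0.65 to 0.93 and Mlx by 0.19 to 0.41. Mxd3 was not called. At 24 h Mycn was still 0.40 above vehicle in B6, 1.00 in C3H and 0.69 in F1, whereas Myc was called in B6 alone (0.63).

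At 24 h most of the assembly factors were called higher than vehicle in every strain, by amounts that differed between strains. In C3H the change was below 0 for 3 genes, Wdr43 (-0.04), Ppan (-0.05) and Rrp1b (-0.10), none of them called. In B6, 40 of 42 rose and none fell, against 30.7% of all genes called higher and 37.3% called lower. In C3H, 32 rose and none fell, against 27% and 40.2%. In F1, 37 rose and none fell, against 31.6% and 36.9%. The medians were 0.84 in B6, 0.37 in C3H and 0.57 in F1, beside -0.06, -0.16 and -0.04 for all genes. Of the 42, 31 were called higher at 24 h in all 3 strains (22.9% of all genes were). At both times in all 3 strains 23 were called higher, a count that was not made over all genes. The genes not called were Wdr43 and Rrp1b in every strain, Wdr75 and Ppan in C3H and F1, Gnl3 in F1, and Polr1a, Utp18, Heatr1, Ltv1, Nolc1 and Ddx21 in C3H. With normexp 35 rose in B6, 11 in C3H and 32 in F1, while the calls over all genes dropped to 18.1%, 11.4% and 17.3% higher.

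Nhp2 had the largest 24 h rise. Its levels were 2.44, 2.41 and 2.42 in B6 vehicle and 4.26, 4.43 and 4.31 at 24 h. In C3H they went from 2.64, 2.54 and 2.34 to 3.63, 3.65 and 3.71, and in F1 from 2.55, 2.51 and 2.42 to 4.00, 4.01 and 4.05. The 24 h arrays of each strain were clear of their vehicle, with B6 highest, F1 next and C3H lowest and no overlap between the 3. The rise was 1.91 ± 0.08 (3.76-fold) in B6, 1.16 ± 0.08 (2.24-fold) in C3H and 1.52 ± 0.08 (2.87-fold) in F1. Gar1 of the same particle rose by 1.37 ± 0.11, 0.89 ± 0.11 and 1.07 ± 0.11, and Dkc1 by 1.32 ± 0.11, 0.65 ± 0.11 and 0.90 ± 0.11. On the probes used, all 3 proteins of the box H/ACA particle and all 3 of the box C/D particle rose in each strain. The second probe of Nop56, a box C/D protein, read 0.15 in B6, -0.21 in C3H and -0.21 in F1.

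Bop1 went from 0.88, 0.78 and 0.83 in B6 vehicle to 2.34, 2.48 and 2.45 at 24 h, a rise of 1.59 ± 0.07. In C3H it went from 0.89, 0.93 and 0.89 to 1.74, 1.73 and 1.81, and in F1 from 0.89, 0.80 and 0.80 to 2.14, 2.21 and 2.11. The strains started level and ended apart in the order seen for Nhp2, with rises of 0.86 ± 0.07 in C3H and 1.32 ± 0.07 in F1. Its partner Wdr12 now rose in all strains, by 1.02, 0.50 and 0.77. Pes1 rose by 0.69, 0.42 and 0.64 on the probe used, while its second probe differed by 0.31, -0.05 and -0.21. Mrto4, which occupies the place of a ribosomal stalk protein until assembly ends, rose by 1.50 ± 0.09, 0.88 ± 0.09 and 1.03 ± 0.09.

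Rrp12 was the small subunit factor with the largest 24 h rise in B6 and in F1, and of the 42 genes it had the widest gap between C3H and B6 (-1.15). In C3H Noc4l (0.76) and Nob1 (0.52) rose more. Levels were -3.53, -3.10 and -3.03 in B6 vehicle and -1.72, -1.37 and -1.72 at 24 h, against -3.26, -2.92 and -3.36 and then -2.83, -2.65 and -2.67 in C3H. In both strains the 24 h arrays were above vehicle, in C3H by little. The rise was 1.62 ± 0.17 in B6, 1.20 ± 0.17 in F1 and 0.47 ± 0.17 in C3H. The C3H call was lost without C3H 24 h replicate 2 (0.44) or replicate 3 (0.45) or C3H vehicle replicate 1 (0.43) or replicate 3 (0.38). With normexp none of the 3 rises was called.

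Markers of other cell states moved at the same time. The 10 genes of dividing cells all rose at 24 h in each strain, with medians at 3.29 for B6, 2.69 for C3H and 3.53 for F1, and 11 of 12 epithelial markers rose in B6 and 10 of 12 in C3H and in F1. The summed level of the 10 dividing-cell genes was 4.27 to 7.18 in B6 vehicle, 46.0 to 53.4 in B6 at 24 h, 33.6 to 39.2 in C3H and 41.1 to 46.2 in F1. The summed level of the 12 epithelial markers at 24 h was 327 to 354 in B6, 248 to 283 in C3H and 303 to 351 in F1, against 124 to 153 over the vehicle arrays of the 3 strains. The part of these shifts in the late changes of the assembly factors was not tested either.

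The 42 genes fell into time courses of unlike shape when 24 h was set against 2 h. In B6, 18 were higher at 24 h (42.9%) and 14 lower (33.3%), against 35.8% and 32.8% of all genes. In C3H, 11 were higher (26.2%) and 24 lower (57.1%), against 34.7% and 35.6%. F1 had 15 higher (35.7%) and 24 lower (57.1%), against 38.4% and 30.2%. The share called lower in B6 and the share called higher in F1 were thus close to those of all genes. The medians were 0.04 in B6, -0.45 in C3H and -0.46 in F1. With normexp B6 had 16 higher and 8 lower, C3H had 1 and 20, and F1 had 9 and 19. Taking the mean of a gene's probes gave 13 and 16 for B6, 8 and 28 for C3H, and 10 and 28 for F1. A fixed term for the slide left C3H with 5 and 22.

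**Figure D2:**
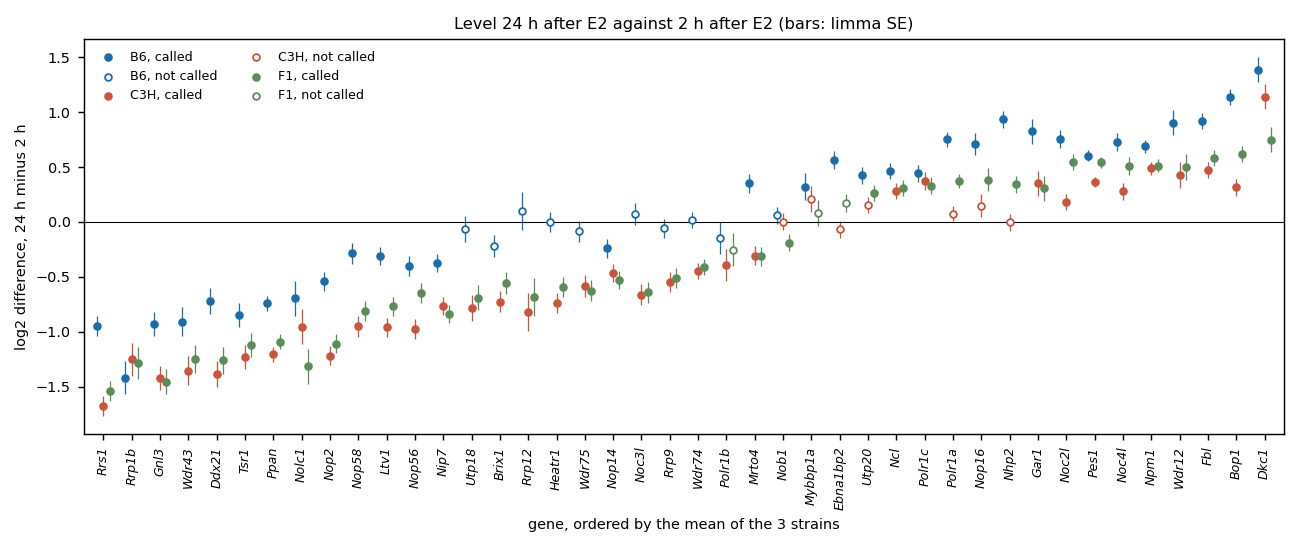
Difference in log2 level between 24 h and 2 h after E2 for each gene in B6, C3H and F1 (bars, limma SE; open points were not called), ordered by the mean of the strains. Rrs1 lies at the low end and Dkc1 at the high end, and in the middle the B6 points sit near 0 while the C3H and F1 points lie mostly below it.

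An early class of 14 genes was lower at 24 h than at 2 h in all 3 strains, as were 23.8% of all genes. It held Nop56, Nop58, the small subunit factors Wdr43, Nop14, Tsr1 and Ltv1, the large subunit factors Rrs1, Ppan, Nop2, Nip7 and Rrp1b, and Nolc1, Ddx21 and Gnl3, each on the probe used. Their median 2 h change was 1.47 in B6, 1.32 in C3H and 1.51 in F1, and their median 24 h change 0.85, 0.26 and 0.46. Rrs1 dropped back the most in C3H, in F1 and over the mean of the strains, and in B6 Rrp1b did (-1.42). The Rrs1 B6 arrays read 1.13, 1.36 and 1.27 at 24 h, the C3H arrays 0.60, 0.42 and 0.61, and the F1 arrays 0.93, 0.96 and 0.83, all below the 2 h arrays and all above the vehicle arrays of the strain. From 2 h to 24 h it fell by 0.95 ± 0.09 in B6, 1.68 ± 0.09 in C3H and 1.54 ± 0.09 in F1.

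Rrp1b, a large subunit factor and chromatin-bound coactivator, was called at 2 h and no longer at 24 h on the probe used. Levels in B6 were -1.46, -0.82 and -0.85 in vehicle, 0.56, 0.66 and 0.87 at 2 h and -0.77, -0.78 and -0.60 at 24 h. The 24 h arrays lay close to vehicle in each strain, and the change from vehicle, 0.33 for B6, -0.10 for C3H and 0.20 for F1, was not called. Another Rrp1b probe read 1.24, 0.60 and 0.94 above vehicle at 24 h, and its remaining probes read from -0.82 to 0.33. The return toward vehicle therefore rested on the probe. Wdr43 likewise was called at 24 h in none of the strains, at 0.29, -0.04 and 0.08, while its second probe read 0.56, 0.02 and 0.20. From 2 h to 24 h Gnl3 fell by 0.93 in B6, 1.42 in C3H and 1.45 in F1, and Ddx21 fell by 0.72, 1.39 and 1.26 with an SE of 0.12.

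A late class of 11 genes was higher at 24 h than at 2 h in all 3 strains, as were 28.5% of all genes, so the late class took no larger a share of the assembly factors than of all genes. It held Polr1c, Fbl, Dkc1, Gar1, the small subunit factor Noc4l, all 3 proteins of the Bop1 complex (Pes1 on the probe used alone), Noc2l, Ncl and Npm1. Their median 2 h change was 0.16 in B6, 0.26 in C3H and 0.33 in F1, and their median 24 h change 1.02, 0.63 and 0.77. Dkc1 made the largest step: its B6 arrays read -0.54, -0.84 and -0.58 at 24 h, its C3H arrays -1.30, -1.05 and -0.99, and its F1 arrays -0.87, -0.91 and -1.06. All of these were above the vehicle and 2 h arrays of the same strain, and the step from 2 h was 1.38 ± 0.11, 1.14 ± 0.11 and 0.75 ± 0.11. With normexp the B6 step of Dkc1 (0.61) was not called.

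Bop1 stepped up from 2 h to 24 h by 1.14 in B6, 0.31 in C3H and 0.62 in F1, and Fbl by 0.92, 0.48 and 0.58, each with an SE of 0.07. Wdr12 stepped up by 0.90, 0.43 and 0.50 with an SE of 0.12. Npm1 ended above its vehicle level, at 6.17, 6.24 and 6.17 in B6 and 6.32, 6.17 and 6.25 in C3H, a step of 0.69 ± 0.06 and 0.49 ± 0.06. In C3H the steps of Bop1 (0.17), Fbl (0.24), Wdr12 (0.34) and Npm1 (0.27) were not called with normexp. That of Wdr12 was also not called in C3H with slide as a fixed term (0.32), nor in F1 with the mean of its probes (0.11). Of the box C/D proteins Nop56 and Nop58 were in the early class and Fbl in the late one, and of the box H/ACA proteins Dkc1 and Gar1 were in the late class and Nhp2 in neither. The other 17 genes, among them Polr1a, Polr1b, Nhp2, Rrp12 and Mrto4, were not called the same way in all strains.

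**Figure D3:**
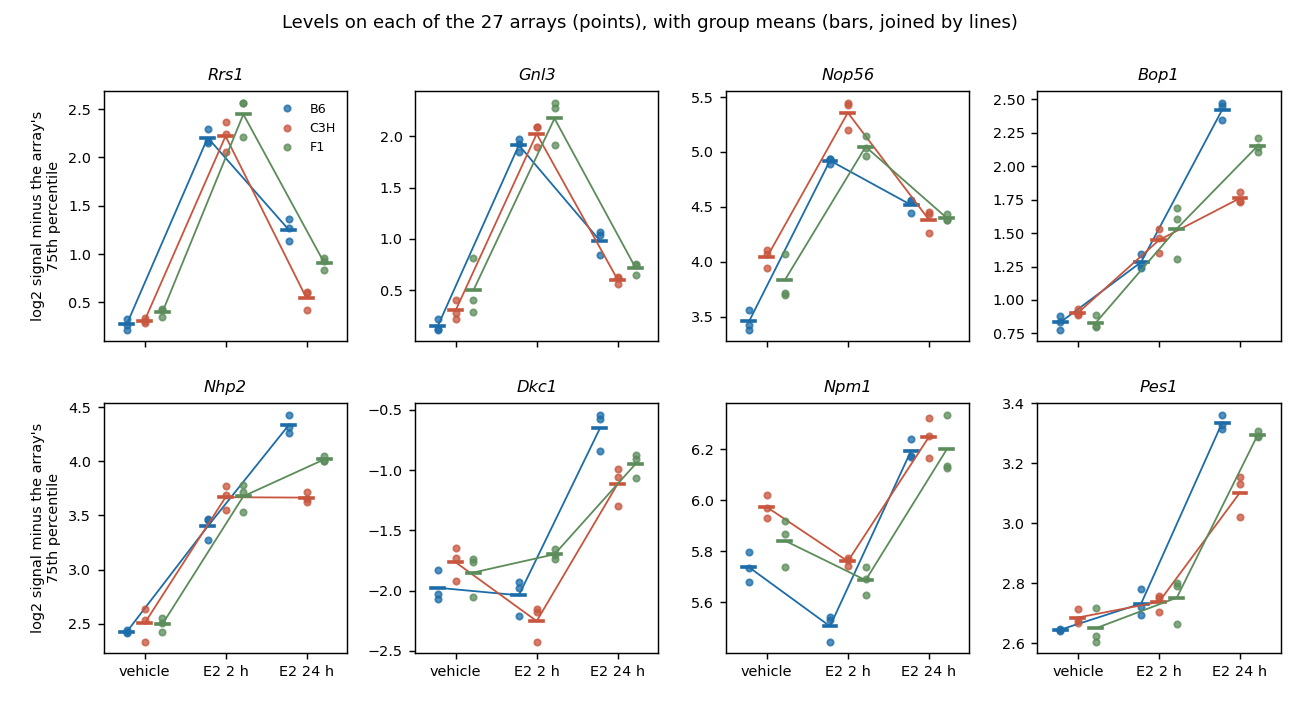
Levels of 8 genes on each of the 27 arrays (points; log2 signal minus the 75th percentile of the array), with group means as bars joined by lines, for B6, C3H and F1. Rrs1, Gnl3 and Nop56 peak at 2 h, Bop1, Dkc1, Npm1 and Pes1 reach their highest level at 24 h, and at 24 h the C3H points of Rrs1, Bop1, Nhp2 and Dkc1 lie below those of B6.

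C3H and B6 were then compared with a test of the difference between their responses. At 2 h no assembly factor differed in its response between C3H and B6 by limma (0.759% of all genes were called higher in C3H and 1.5% lower), and 3 of 42 had an unadjusted p under 0.05. The median difference was -0.01, and it ranged from -0.68 for Nolc1 to 0.19 for Nhp2. At 24 h the rise was smaller in C3H than in B6 for 41 of 42 genes, with Polr1c at 0.03 the exception and Nob1 almost level. The difference was called for 31 genes, all with the smaller rise in C3H, against 13.2% of all genes called lower and 5.75% called higher. Its median was -0.52, beside -0.05 for all genes. The genes were listed with a smaller late rise in C3H already known, so these counts describe them and are no separate evidence for it.

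**Figure D4:**
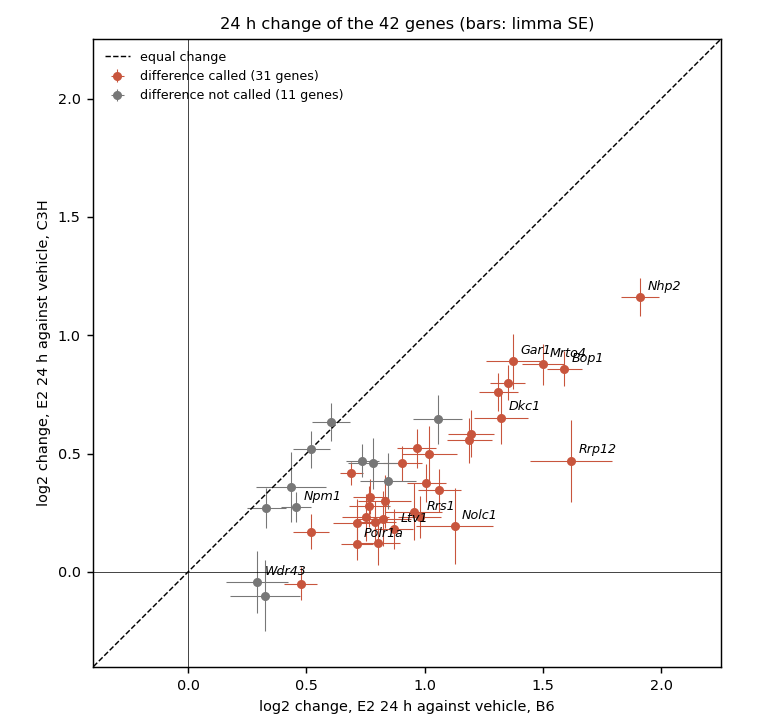
Log2 change 24 h after E2 in C3H against that in B6 for the 42 genes (bars, limma SE), with a dashed line at equal change; red marks the 31 genes whose difference was called. All points but Polr1c lie below the line, and Nhp2 is the highest in both strains.

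The lowest p-values belonged to genes of several roles. Bop1 rose less in C3H by 0.73 ± 0.10 log2 units (difference -0.73, adjusted p = 0.000122), and Nhp2 had a difference of -0.75 ± 0.11 (adjusted p = 0.000185). Polr1a rose in B6 from 1.73, 1.63 and 1.62 to 2.26, 2.43 and 2.44, while C3H had 1.76, 1.78 and 1.87 in vehicle and 2.02, 1.84 and 1.91 at 24 h. The B6 groups were apart and the C3H groups overlapped, with changes of 0.71 ± 0.07 and 0.12 ± 0.07 and a difference of -0.60 ± 0.09. The second probe of Polr1a read -0.29 in B6 and -0.98 in C3H, so the sign of its late change rested on the probe. The difference on that probe was -0.69. Ltv1 levels went from -2.89, -2.79 and -2.89 to -2.04, -1.89 and -2.04 in B6, but only from -2.76, -2.84 and -2.76 to -2.62, -2.59 and -2.61 in C3H. The C3H rise of 0.18 was not called, and the difference was -0.69 ± 0.12.

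Rrs1 rose by 0.98 ± 0.09 in B6 and 0.23 ± 0.09 in C3H, a difference of -0.75 ± 0.13. Heatr1, a factor of the earliest precursor particle, had 0.23, 0.37 and 0.37 in B6 vehicle and 0.99, 1.27 and 1.14 at 24 h. In C3H it read 0.42, 0.54 and 0.34 and then 0.59, 0.53 and 0.55, so its C3H groups overlapped and the change of 0.12 was not called. The difference was -0.68 ± 0.13. Ppan, a large subunit factor, rose in B6 by 0.48 ± 0.07 and in C3H read 2.78, 2.70 and 2.62 and then 2.69, 2.58 and 2.68, a change of -0.05 that was not called. The C3H groups of Ppan overlapped. Its difference was -0.53 ± 0.10. Fbl had a difference of -0.55 ± 0.10 and Ebna1bp2, another large subunit factor, of -0.63 ± 0.11, both with clear rises in both strains on the probes used. The second probe of Ebna1bp2 read -0.43 in B6 and -0.55 in C3H, with a difference of -0.12. The sign of its late change and the size of its difference therefore rested on the probe.

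The direction of these differences held up better than their calls. With normexp the difference was below 0 for all 42 genes, with a median of -0.57 beside 0.22 for all genes, but 3 genes were called instead of 31, and 0.466% of all genes were called lower. The median SE of the difference over the 42 genes was 0.23 with normexp and 0.13 without it. Among the 10 genes with the lowest p, those of Nhp2, Polr1a, Ltv1, Nop56, Ebna1bp2, Ppan and Fbl lost their call, and the Ltv1 value shrank to -0.16. With no scaling between arrays 23 differences were called, and with quantile normalization 24.

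The step from 2 h to 24 h was also more negative in C3H for 41 of 42 genes. It was called for 29, against 13.1% of all genes called lower and 9.89% called higher, and with slide as a fixed term for 10. At 24 h the level itself was lower in C3H than in B6 for 30 genes and higher for none, against 22.1% and 16.4% of all genes, with a median of -0.38. Both the smaller change and the lower level were called for 27 genes. These calls share the C3H and B6 24 h arrays, so neither is separate evidence for the other. Their joint count was not made over all genes. The other 4 with a smaller change (Nop56, Wdr75, Utp18 and Noc2l) were higher in C3H than in B6 before E2 and did not differ by call at 24 h.

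In vehicle 6 of 42 genes (14.3%) were called higher in C3H than in B6 and 1 (2.4%) lower, against 13.3% and 11% of all genes. The share called higher was thus close to that of all genes. The difference was above 0 for 39 of the 42, called or not, with a median of 0.12 beside 0.05 for all genes. Nop56 had 3.56, 3.42 and 3.38 in B6 vehicle and 4.11, 3.94 and 4.07 in C3H vehicle, with no overlap and a difference of 0.58 ± 0.09. At 24 h it read 4.44, 4.56 and 4.55 in B6 and 4.44, 4.26 and 4.45 in C3H, which overlapped. The vehicle difference of Nop56 rested on the probe, since the mean of its probes gave -0.092. Noc2l (0.44), Utp18 (0.43) and Npm1 (0.24) were higher in C3H vehicle, and Polr1b was lower, at -1.06, -1.08 and -1.19 against -0.62, -0.37 and -0.51 in B6. No vehicle difference was called with normexp or with slide as a fixed term, where Polr1b turned to 0.18. With no scaling 3 were called higher. Noc2l lacked a value on B6 24 h replicate 3, whose spot carried an outlier mark.

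Markers of other cells differed between the strains alongside. Of the 10 dividing-cell genes, 3 had a smaller 24 h rise in C3H (median difference -0.74), as did 2 of 12 epithelial markers (-0.19). None of 9 smooth muscle markers did (-0.01). Over all genes 13.2% were called lower in this difference and 5.75% higher, so the epithelial count was near the share of all genes. The 8 leukocyte and macrophage markers summed to 12.1 to 15.0 in B6 and 22.5 to 23.4 in C3H at 24 h, with a larger change called in C3H for 2 genes (median difference 0.90). All of these epithelial, stromal, smooth muscle and leukocyte markers were well above background in each group, while Cxcr2 (neutrophils), Cd79a (B cells) and Lep (adipose tissue) were not in some. Other markers already differed between the strains without E2 or in their 24 h level. In vehicle all 5 adipose markers were lower in C3H (median difference -3.32), 3 of 4 mast cell markers were higher (1.00) and 7 of 9 smooth muscle markers were higher (0.31). At 24 h all 4 mast cell markers were higher in C3H (1.51), as were 5 of 8 endothelial markers (0.32), against 16.4% of all genes. The 24 h change was called higher in C3H for 2 of the 8 endothelial markers (median difference 0.21). The part of all these markers in the strain differences of the assembly factors was not tested.

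The F1 arrays lay between the parents for most of these genes at 24 h. Since the F1 24 h arrays shared no slide with another group, slide cannot be told apart from these F1 values. The 24 h change was ordered B6 over F1 over C3H for 37 of 42, and B6 had the largest change for 40. Few single differences involving F1 were called. Against B6, 4 genes rose less in F1, namely Nop56 (-0.49), Ltv1 (-0.50), Ppan (-0.42) and Gnl3 (-0.61), beside 1.13% of all genes called lower and 0.915% called higher. Against C3H, Bop1 rose more in F1 (0.47 ± 0.10, adjusted p = 0.0191), beside 3.06% of all genes called higher and 0.75% called lower. The medians were -0.30 against B6 and 0.23 against C3H, and 22 and 11 genes had an unadjusted p under 0.05. The count of 4 against B6 was 0 with normexp, with no scaling, with the replicate block and with only the groups compared. It was 1 with median scaling, 2 with quantile normalization, with no filter on dim probes and with slide as a random block, and 7 with only probes well above background on all arrays. The count of 1 against C3H was 0 with normexp and 2 with the replicate block or only the groups compared. The counts of called genes moved between 0 and 8 against B6, and between 0 and 3 against C3H, as single arrays were left out. Without B6 24 h replicate 1 or F1 2 h replicate 1 the count against B6 was 8 and without C3H 2 h replicate 1 it was 7. Without B6 24 h replicate 3, B6 vehicle replicate 3, F1 24 h replicate 3 or F1 vehicle replicate 1 it was 0, and it was 1 without B6 24 h replicate 2, B6 vehicle replicate 1 or F1 24 h replicate 1. It was 2 without B6 vehicle replicate 2, F1 24 h replicate 2, F1 vehicle replicate 3, any B6 2 h array, any C3H vehicle array, C3H 2 h replicate 2 or 3, or C3H 24 h replicate 3, and 3 or 4 otherwise. Against C3H the count was 0 without C3H 24 h replicate 2, 2 without C3H vehicle replicate 3 or B6 vehicle replicate 1 and 3 without F1 2 h replicate 1.

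Genes that rise late in general also rose less in C3H, though to a smaller extent. Among the 6907 genes called higher at 24 h in F1, whose arrays are in neither side of the C3H and B6 difference, 25.6% were called with a smaller rise in C3H and 2.78% with a larger one, and the median difference was -0.20. The 37 assembly factors among them had a median difference of -0.55. Since the assembly factors were listed with a smaller late rise in C3H already known, their larger difference describes them and is no separate evidence.

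The rest of the ribosome assembly machinery followed the same outline with smaller changes. Of 117 other assembly genes measured, 82 rose and 9 fell at 2 h in B6. C3H had 86 and 11, and F1 had 91 and 9. Bysl, a small subunit factor, rose by 1.75 in B6, 1.69 in C3H and 1.98 in F1, and Mphosph10, Utp6 and Mak16 rose by 1.47 to 1.92 across the strains. At 24 h 87 rose in B6 and 8 fell. In F1 65 rose and 17 fell, and in C3H 50 rose and 19 fell, with 76 rising there under median scaling. The C3H and B6 difference was called lower for 54 and higher for 1, with a median of -0.32. Not all parts of the machinery moved this way: Taf1a, a subunit of the RNA polymerase I selectivity factor, fell at 24 h by 1.09, 1.03 and 1.08.

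**Figure D5:**
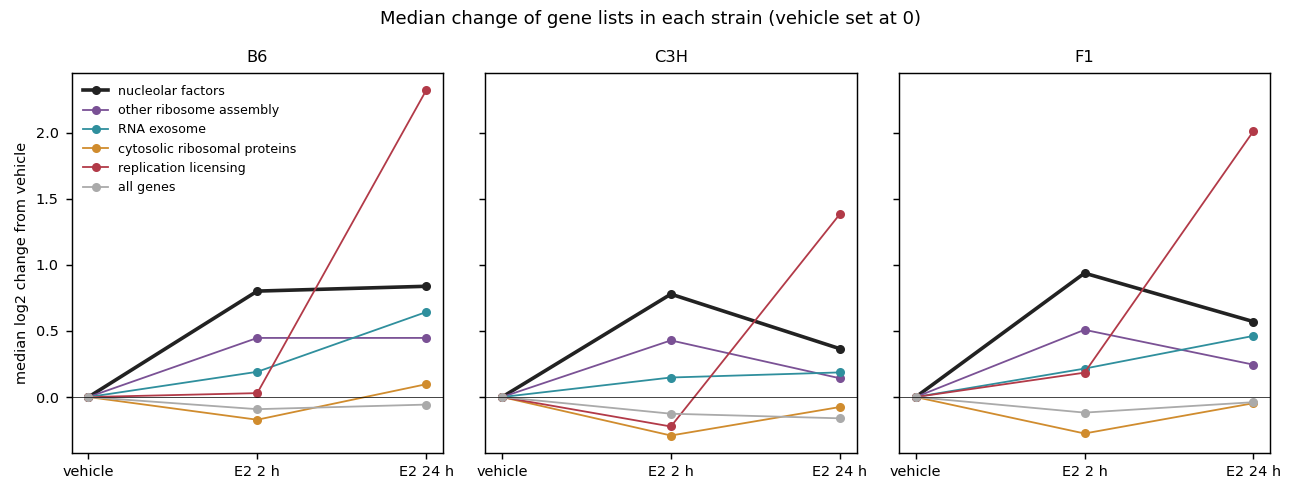
Median log2 change from vehicle of the 42 nucleolar factors, of other assembly genes, of the RNA exosome, of cytosolic ribosomal proteins, of replication licensing genes and of all genes, in each strain, with vehicle set at 0. The nucleolar factors are highest at 2 h in every strain and hold that level at 24 h in B6 alone, while the licensing genes climb between 2 h and 24 h.

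The RNA exosome, which trims ribosomal RNA precursors, moved at both times. At 2 h, 7 of its 14 genes rose and 3 fell in B6 and likewise in C3H, while in F1 9 rose and 2 fell. At 24 h all 14 rose in B6, 7 in C3H and 10 in F1, none fell, and 10 of 14 had a smaller rise in C3H. Cytosolic ribosomal protein genes went the other way at 2 h. Of 79, 45 fell in B6, 67 in C3H and 72 in F1, against 34%, 37.1% and 37% of all genes called lower. In each strain 2 rose (Rpl15 and Rpl21, named after their values were seen). The falls were small, with medians of -0.17, -0.29 and -0.28 beside -0.09, -0.13 and -0.12 for all genes. No check of these 2 h falls under other scalings is given here. At 24 h 33 rose in B6 and 5 fell. In C3H 12 rose and 27 fell, and in F1 12 rose and 18 fell. These 24 h counts rested on the scaling, since with median scaling 69, 26 and 32 rose and with quantile normalization 8 rose in B6. All 11 replication licensing genes rose at 24 h in each strain, with medians at 2.32 for B6, 1.38 for C3H and 2.01 for F1, and the rise was smaller in C3H for all 11. Mcm10, a DNA replication initiation factor, rose by 3.86, 2.72 and 4.18, and Cdc6, which loads the replicative helicase, by 3.68, 2.41 and 3.86.

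Different probes of a gene did not always move together. Of the 42 genes, 21 had more than 1 probe above background, and the one with the highest mean signal was used. At 2 h the probes of 2 genes differed in sign in B6, of 2 in C3H and of 1 in F1, and at 24 h those of 3, 13 and 9. Over the 27 probes not used, the median 24 h change was 0.47 in B6, 0.03 in C3H and 0.25 in F1, so the size of the late rise, and in C3H its sign, depended on the probe for these genes. With the mean of all probes 41 genes rose at 24 h in B6, 27 in C3H and 31 in F1, and 1 fell in C3H and 1 in F1. In Nip7 the probe used rose by 0.97 in B6 at 24 h and the other read -0.46. For some genes, among them Pes1, Nop16 and Ddx21, the time course itself differed by probe. The 2 h changes in B6 were 0.09 and 0.85 for the probes of Pes1 and 0.35 and 1.06 for those of Nop16. In B6 another Ddx21 probe read 2.04 at 2 h and 2.23 at 24 h, beside 1.67 and 0.95 on the probe used. The strain difference was less open to this: it was below 0 for 68 of 69 probes, with a median of -0.41 over the 27 not used.

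Where a slide held both groups of a contrast, the values within it were close to those over all arrays. The median 2 h change was 0.71 in B6 on the slide with 1 E2 and 3 vehicle arrays, and 0.97 in F1 on the slide with 3 E2 and 1 vehicle array. The median of 24 h against 2 h was 0.02 in B6 on a slide with 2 arrays of each and -0.50 in C3H on a slide with 1 and 3. No slide gave a within-slide value for the change from vehicle to 24 h in any strain, or for the difference between C3H and B6. With slide as a fixed term that difference could not be fitted, nor could the 24 h change in C3H or in F1.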

How the data were processed

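Uterus RNA was hybridised to single-colour Agilent arrays, of which 27 were analysed (9 groups of 3). The deposited scanner files hold spot intensities that the authors made with Agilent Feature Extraction 9.5, per the submitters' processing notes (9.5.3.1 per the file headers); its processed signal is already background-corrected. The deposited value table held the same signal in 27 of 27 columns. Probe coordinates are on mm7, per the file headers, and were not used; promoter sequences are those of RefSeq on GRCm38.p6.

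From these intensities log2 of the processed signal minus the 75th percentile of each array was computed, leaving out 1639 control spots and spots with an outlier mark (48 to 117 per array). A probe was kept where some group had it well above background on its 3 arrays, and the probe with the highest mean signal stood for its gene. Probes were named by accession or symbol through RefSeq, and 16 of the 42 genes carried an older name. limma 3.58.1 (R 4.3.3, data.table, 1.17.8) fitted 9 group means over all 27 arrays for 21866 genes and 16 contrasts, with 18 residual degrees of freedom, and changes with an adjusted p under 0.05 (Benjamini-Hochberg, over all genes) were called. The number of arrays limits the precision. The fit was tested on simulated data. Files were read with pandas 2.3.3 and numpy 2.4.6, and figures drawn with matplotlib 3.10.9 (Python 3.11.15).

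The members and gene lists were chosen with earlier results of these data known, the smaller late rise in C3H among them. Genes described in full were the largest changes at 2 h and 24 h, those called lower, the lowest p-values of the C3H and B6 difference, the largest steps, called vehicle differences and the brightest genes of each role. Contrasts of 2 h and of 24 h share their vehicle arrays. Alternatives were other scalings, normexp background correction (offset 50), other probe rules, slide or replicate number as a block, a change of at least 1 log2 unit, fitting only the groups compared, and leaving out each array. Slides are those of the slide code in the labels. Replicate numbers did not pair the arrays.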

Additional observations from a re-analysis of the deposited data

Results flagged for a closer look

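These results are listed because the same contrast differed between strains by a test of the difference itself (limma, adjusted over all genes). The 24 h rise was smaller in C3H than in B6 for 31 of the 42 genes, against 13.2% of all genes called lower. The step from 2 h to 24 h was more negative in C3H for 29, against 13.1%. Because the genes were listed with a smaller late rise in C3H already known, the C3H counts and values are no separate evidence for it. The 24 h rise was smaller in F1 than in B6 for 4 genes (1.13% of all genes) and larger in F1 than in C3H for 1, Bop1 (3.06% of all genes). Among the genes with the lowest p, the C3H minus B6 difference was -0.75 for Nhp2, -0.75 for Rrs1, -0.73 for Bop1, -0.72 for Nop56 and -0.69 for Ltv1. It was -0.68 for Heatr1, -0.63 for Ebna1bp2, -0.60 for Polr1a, -0.55 for Fbl and -0.53 for Ppan.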

How the results depend on the processing

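The median change of the 42 genes stayed above 0 at 2 h and 24 h in each strain, and the median C3H and B6 difference at 24 h stayed below 0, under every alternative that could be fitted; the counts moved more, and the cause was not tested. Counting only changes of at least 1 log2 unit, 16 genes rose at 2 h in B6, 18 in C3H and 19 in F1, and 15, 1 and 7 at 24 h. The step from 2 h to 24 h then had 2, 1 and 0 higher and 1, 8 and 9 lower, the C3H and B6 difference 1 (0 for the step), vehicle 0, the 24 h level 1, and both F1 differences 0. With normexp, C3H had 11 higher at 24 h, the step had 8 lower in B6, 1 higher in C3H and 9 higher in F1, the C3H and B6 difference had 3, and vehicle and both F1 differences had 0. Slide as a fixed term gave 5 higher for the C3H step, 10 for the C3H and B6 step difference and 0 in vehicle, and no scaling gave 3 in vehicle. The F1 and B6 difference of 4 became 1 with median scaling, 2 with quantile normalization, with no filter on dim probes or with slide as a random block, 7 with only probes above background on all arrays, and 0 with no scaling or only the groups compared. With the replicate number as a block (replicate block) it became 0, the F1 and C3H difference 2 (also 2 with only the groups compared), the C3H rises 29 and the C3H and B6 difference 29; 5 of 27 same-numbered pairs correlated over 0.1, and 11 of 27 arrays correlated best with their own number. Values that changed sign were Npm1 at 2 h in F1 (0.096 with no scaling, 0.045 with normexp), Nop56 in vehicle (-0.092 with the mean of probes) and Polr1b in vehicle (0.18 with slide fixed). Leaving out each array gave 34 to 35 rises at 2 h in B6 and in C3H and 35 to 38 in F1. At 24 h it gave 39 to 42 in B6, 25 to 34 in C3H and 37 to 38 in F1. The steps had 17 to 18, 9 to 12 and 14 to 16 higher and 13 to 15, 23 to 24 and 23 to 25 lower. The C3H and B6 difference had 27 to 33 at 24 h, 25 to 32 for the step and 0 to 0 at 2 h, the 24 h level 28 to 31 and vehicle 4 to 7. The F1 differences had 0 to 8 against B6 and 0 to 3 against C3H. The median of all genes shifted with scaling, at 24 h to 0.19 in B6, 0.03 in C3H and 0.15 in F1 with median scaling and to -0.31, 0.08 and -0.50 with normexp. Of 79 values of named genes, 25 lost their call in at least 1 alternative. Each array had 4286 to 6886 spots set to a surrogate signal, which limits values of dim probes.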
